A study of Mus musculus with 10 samples.

Results

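The expression of 10 ureteral mesenchyme, smooth muscle and hedgehog genes was followed in isolated kidney mesenchyme of Wnt9b-/- embryos and of Wnt9b+/+ littermates. They were the regulators Tbx18, Tshz3 and Myocd, the contractile genes Acta2, Tagln, Cnn1, Myh11 and Actg2, and the hedgehog response genes Ptch1 and Gli1. Every probe set whose annotation held only 1 of these 10 symbols was taken, which gave 17 of the 45037 probe sets tested and 10 of 18193 genes. The tissue was metanephric mesenchyme of mouse embryos at stage E11.5, separated from the ureteric bud with trypsin and pancreatin. Each group had 5 Affymetrix arrays, mutant (Wnt9b-/-) and wild type (Wnt9b+/+ in the sample labels, Wnt9b+/- in the series' design text), and each array carried RNA pooled from 25 to 30 mesenchymes. Embryos came from crosses of Wnt9b+/- parents, and no other allele or agent is named in the labels. Wnt9b encodes a Wnt ligand that the ureteric bud releases to the mesenchyme. Arrays were treated as separate pools, which the labels used here do not state outright. The tests therefore compare the groups against the spread between arrays. Titles of some mutant arrays are nearly identical, and whether their pools share tissue is not given. Replicate numbers only name the arrays within a group.

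The ureter's muscle coat forms from mesenchyme around the distal stalk of the ureteric bud, next to the kidney. There the epithelium releases Sonic hedgehog, which binds the receptor Ptch1 on neighbouring mesenchyme, frees the membrane protein Smo and lets Gli transcription factors act. Ptch1 and Gli1 are themselves switched on by the pathway, so their transcripts are used as its readouts. Bmp4, Tshz3 and Myocd lie on the route to smooth muscle, where the serum response factor SRF binds the CArG box of contractile promoters with myocardin as its co-activator. Tbx18 marks ureteral mesenchyme before it becomes muscle, and ureteral muscle appears later in gestation than the stage sampled here.

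Upstream sequences were available for 5 of the 10 genes, Tbx18, Tshz3, Acta2, Cnn1 and Ptch1, from RefSeq on GRCm38.p6, and those of Myocd, Tagln, Myh11, Actg2 and Gli1 are not used here. The windows held 250 bases before and 50 after an annotated start. They were searched for the CArG box, written as 2 C, 6 A or T and 2 G, with at most 1 G or C allowed in the middle, and on both strands, which is the same search because the motif is its own reverse complement. Of 32544 windows, 9.96% held at least 1 such match and 0.811% held 2 or more. Acta2 had 2, which start 84 and 34 bases before the annotated start. Tbx18 had 1, at 133 bases before its start, and Tshz3, Cnn1 and Ptch1 had none. No window of the 5 genes held the Gli motif GACCACCCA on either strand, which 0.246% of all windows did. The sequence of Acta2 is shown because that gene leads the contractile results below. That of cardiac actin, Actc1, is shown beside it, and it held 4 matches. This gene was chosen after its values were seen. Among mutant arrays its signal was highest in replicate 4 and lowest in 2 and 5, as was that of Acta2. Myl9, chosen likewise, held 2 matches and is not shown. Whether matches and signal go together was not tested. Tbx18 is shown as the gene with the smallest p. Capitals mark the CArG matches, which describe letters and are not shown to be bound. All 3 lie before the annotated start, Acta2 at chr19:34255374-34255623 on the minus strand, Actc1 at chr2:114052876-114053125 on the minus strand and Tbx18 at chr9:87731261-87731510 on the minus strand.
Acta2: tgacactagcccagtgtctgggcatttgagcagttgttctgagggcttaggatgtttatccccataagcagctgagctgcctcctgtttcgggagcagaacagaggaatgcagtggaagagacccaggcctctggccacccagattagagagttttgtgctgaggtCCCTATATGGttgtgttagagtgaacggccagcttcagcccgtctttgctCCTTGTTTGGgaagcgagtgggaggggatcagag
Actc1: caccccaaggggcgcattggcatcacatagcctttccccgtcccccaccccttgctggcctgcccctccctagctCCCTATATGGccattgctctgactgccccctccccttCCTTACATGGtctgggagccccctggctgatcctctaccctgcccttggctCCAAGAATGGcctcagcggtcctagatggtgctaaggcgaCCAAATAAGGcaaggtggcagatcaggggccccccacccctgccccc
Tbx18: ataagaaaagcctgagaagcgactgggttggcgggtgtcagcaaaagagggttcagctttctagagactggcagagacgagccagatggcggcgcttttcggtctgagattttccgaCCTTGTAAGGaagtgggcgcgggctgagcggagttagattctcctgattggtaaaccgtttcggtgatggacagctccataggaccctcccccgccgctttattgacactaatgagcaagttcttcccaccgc

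Signal was used as log2(signal + 1), called log2 signal, and differences are mutant minus wild type on that scale with limma's two-sided test and Benjamini-Hochberg adjustment over all 45037 probe sets. A probe set is called dim where its mean lies below the median of all probe sets, 6.12. Array pairs correlated at 0.915 to 0.954. The signal of 18S ribosomal RNA was 1975 to 2587 on 4 arrays (mutant replicates 4 and 5, wild-type replicates 2 and 5) and 92.4 to 322 on the other 6, and differences are also given for this 18S-high and 18S-low set. Hybridisation controls were brightest on mutant replicate 2 (mean log2 signal 11.87) and wild-type replicate 3 (11.48). Wnt9b itself read 6.31, 6.74, 6.66, 6.03 and 5.42 in mutant replicates 1 to 5, against 6.37, 6.65, 6.49, 6.54 and 6.31 in wild-type replicates 1 to 5. The sources used here do not say where its probe set lies relative to the deletion, so these values check nothing about the labels.

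None of the 17 probe sets was called at an adjusted p under 0.05 (all adjusted p = 1.00), and 0.00444% of all probe sets were. At an unadjusted p under 0.05, 2 of the 17 were higher in the mutant, both of them Tbx18, and none was lower. The background was 2.56% of all probe sets higher and 1.95% lower. The groups overlapped for each of the 17, while 0.888% of all probe sets had groups without overlap. Over the 17 probe sets, 12 were higher in the mutant, with a median difference of 0.26, against 0.01 over all probe sets. Probe sets of 1 gene are not independent, and Tbx18, Myocd, Acta2, Myh11 and Ptch1 had more than 1. The plot of the 17 differences shows how wide the intervals are, above all for the dim probe sets.

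**Figure D1:**
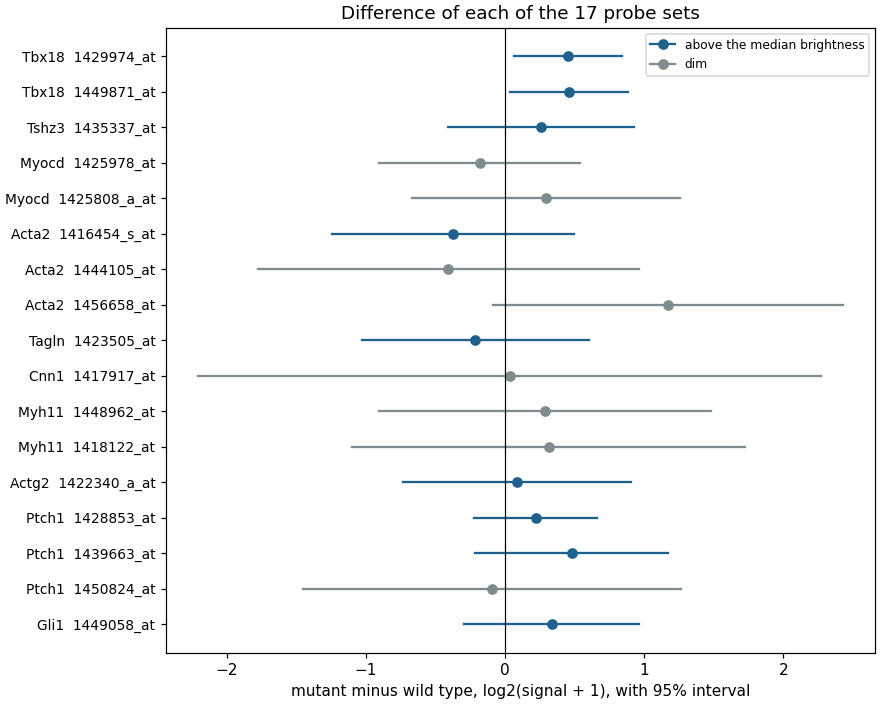
Difference of each probe set, mutant minus wild type in log2(signal + 1), with its 95% interval from limma (5 mutant and 5 wild-type arrays). The intervals of both Tbx18 probe sets lie above 0, from 0.07 to 0.84 and from 0.04 to 0.88, and the other 15 intervals include 0.

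Tbx18, the T-box transcription factor of undifferentiated ureteral mesenchyme, was bright on both probe sets. On 1429974_at its log2 signal was 9.61, 9.72, 10.11, 10.37 and 10.16 in mutant replicates 1 to 5, against 9.62, 9.64, 9.28, 9.54 and 9.62 in wild-type replicates 1 to 5. Thus 4 mutant arrays lay above every wild-type array, and mutant replicate 1 lay within the wild-type range. The means were 9.99 ± 0.32 in the mutant and 9.54 ± 0.15 in wild type (SD, n = 5 each), a difference of 0.46 (SE 0.17, 95% interval 0.07 to 0.84, limma unadjusted p = 0.0257, adjusted p = 1.00). On 1449871_at the signal was 8.54, 8.77, 8.66, 9.28 and 9.02 in the mutant, against 8.45, 8.49, 7.97, 8.36 and 8.69 in wild type, with 3 mutant arrays above every wild-type array. That probe set gave the same size of difference, 0.46 (SE 0.19, interval 0.04 to 0.88, limma unadjusted p = 0.0356, adjusted p = 1.00), or 1.38-fold. The differences in the 18S-high and 18S-low sets were 0.63 and 0.34 on the first probe set and 0.56 and 0.40 on the second. Without wild-type replicate 3, the lowest array of its group on both, they were 0.39 and 0.35, and neither then had an unadjusted p under 0.05, which also held without mutant replicate 4 (0.36 and 0.35) and without mutant replicate 5 (0.41 and 0.42). The first probe set also missed it without mutant replicate 3, and the second without wild-type replicate 1 or 4. In RNA of whole mesenchyme, more cells with a transcript and more transcript per cell cannot be told apart.

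Tshz3, a zinc-finger factor needed for ureteral smooth muscle, had a log2 signal of 7.38, 7.23, 8.28, 8.46 and 8.08 in the mutant, against 7.75, 7.95, 6.93, 7.50 and 8.02 in wild type. Mutant replicates 3, 4 and 5 were above every wild-type array and mutant replicates 1 and 2 were below the wild-type mean, so the groups overlapped broadly. The difference was 0.26 (SE 0.30, 95% interval -0.41 to 0.93, limma adjusted p = 1.00), and 0.08 without wild-type replicate 3. Over the 10 arrays Tshz3 and Tbx18 had Pearson's r = 0.825 (permutation p = 0.00313, adjusted p = 0.0667 over the 45 pairs of the 10 genes) and Spearman's rho = 0.758 (permutation p = 0.0152, adjusted p = 0.336). Without the 2 arrays farthest from the median of Tbx18 r was 0.738, and in the 6 arrays of the 18S-low set it was 0.869. The 4 arrays of the 18S-high set are too few for a value. The pair did not pass adjustment. The same arrays were high for both genes, mutant replicates 3, 4 and 5, and the same array was lowest for both, wild-type replicate 3. Within groups of 5 arrays r was 0.956 in the mutant and 0.959 in wild type, and for deviations from the group means it was 0.932. These 3 values were not tested.

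Myocd, the SRF co-activator that starts the smooth muscle programme, was dim. Its brighter probe set read 7.11, 5.53, 5.55, 5.95 and 5.72 in the mutant, against 5.81, 6.06, 6.0, 6.84 and 6.07 in wild type, a difference of -0.18 (SE 0.32, 95% interval -0.90 to 0.54, limma adjusted p = 1.00). One array stood above the rest in each group, mutant replicate 1 and wild-type replicate 4. The other probe set had raw signals of 2.6 to 8.1 in the mutant against 1.8 to 10.5 in wild type, and a log2 difference of 0.29 (SE 0.43). The probe sets differ in sign, and no direction is given for Myocd. Its partner Srf was bright on both sides and differed by -0.16 (SE 0.25), the related co-activators Mrtfa and Mrtfb by 0.10 (SE 0.17) and 0.10 (SE 0.13). None of the 6 measured genes of the SRF and myocardin list had an unadjusted p under 0.05.

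**Figure D2:**
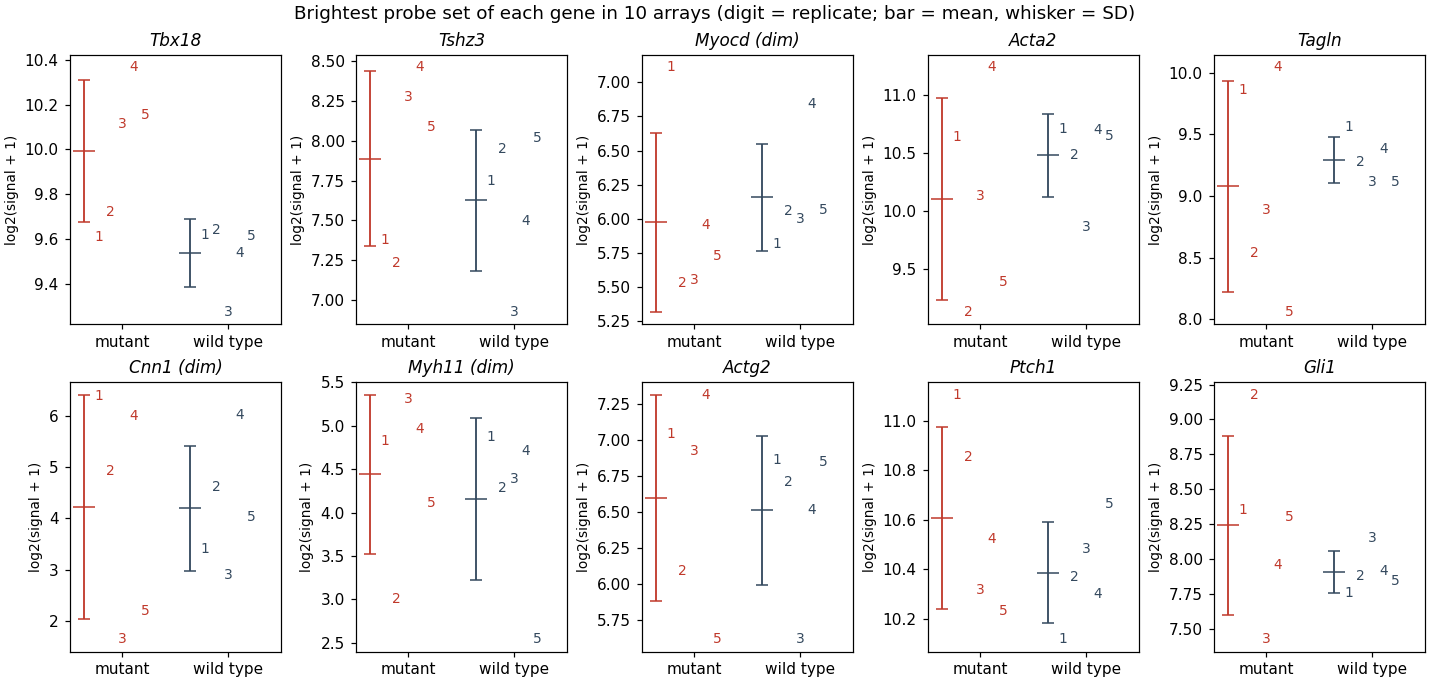
Log2(signal + 1) of the brightest probe set of each gene, mutant left of wild type, with the digit of the replicate at its value, the group mean as a bar and the SD as a whisker (n = 5 each). For Tbx18 mutant replicates 2 to 5 lie above all wild-type arrays, and for Acta2, Tagln and Gli1 the mutant arrays are spread on both sides of the wild-type arrays.

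Acta2, which encodes smooth muscle alpha actin, was above the median brightness, with raw signals of 559 to 2414 in the mutant and 931 to 1671 in wild type. Its log2 signal on 1416454_s_at was 10.64, 9.13, 10.13, 11.24 and 9.39 in the mutant, against 10.71, 10.49, 9.86, 10.70 and 10.64 in wild type. One mutant array was above every wild-type array and 2 were below all of them. The difference was -0.37 (SE 0.39, 95% interval -1.24 to 0.49, limma adjusted p = 1.00), and leaving out single arrays moved it between -0.66 (mutant replicate 4 left out) and -0.13 (mutant replicate 2 left out). In Affymetrix naming the suffix s marks probes that can match several transcripts, so other actins may add to this signal, and their share was not tested. The other probe sets of Acta2 were dim, at -0.41 (SE 0.61) for 1444105_at and 1.17 (SE 0.56, limma unadjusted p = 0.0645) for 1456658_at, where raw signals were 20.9 to 32.7 in the mutant against 1.7 to 25.5 in wild type. With a gene's probe sets averaged, Acta2 came to 0.13, so the sign of its difference depends on the probe set.

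Tagln, the actin-binding protein transgelin and an early smooth muscle marker, varied with Acta2. Its log2 signal was 9.86, 8.54, 8.89, 10.05 and 8.06 in the mutant, against 9.56, 9.28, 9.12, 9.38 and 9.12 in wild type. Mutant replicates 1 and 4 were above every wild-type array and the other 3 were below all of them, so each mutant array lay outside the wild-type range, on one side or the other. The means were 9.08 ± 0.85 in the mutant and 9.29 ± 0.19 in wild type (SD, n = 5 each), a difference of -0.21 (SE 0.36, 95% interval -1.02 to 0.60, limma adjusted p = 1.00). Over the 10 arrays Tagln and Acta2 had Pearson's r = 0.890 (permutation p = 0.00056, adjusted p = 0.0252), the 1 pair of the 45 that passed, and Spearman's rho = 0.830 (permutation p = 0.00468, adjusted p = 0.211), which did not pass. Without the 2 arrays farthest from the median of Acta2 r was 0.788, in the 6 arrays of the 18S-low set 0.885, and without the 2 arrays of brightest hybridisation controls 0.941. Within groups of 5 arrays it was 0.931 in the mutant, whose arrays were spread more widely, and 0.595 in wild type. The permutations ran over all 10 arrays without regard to group.

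Actg2, the smooth muscle gamma actin, read 7.04, 6.09, 6.92, 7.31 and 5.61 in the mutant, against 6.86, 6.71, 5.62, 6.51 and 6.85 in wild type. The difference was 0.09 (SE 0.37, 95% interval -0.73 to 0.90, limma adjusted p = 1.00), with -0.31 in the 18S-high set and 0.35 in the 18S-low set. Actg2 was again highest in mutant replicates 4 and 1. Its r with Acta2 was 0.820 (permutation p = 0.00445, adjusted p = 0.0667, Spearman's rho 0.685, permutation p = 0.0349, adjusted p = 0.336, 0.764 without 2 arrays), which did not pass adjustment. Actc1, the actin of heart and of early muscle, was chosen after its values were seen. It read 9.74, 8.89, 9.76, 10.02 and 8.73 in the mutant, against 9.69, 9.30, 8.78, 9.39 and 9.23 in wild type. Thus it was high in mutant replicates 1, 3 and 4 and low in 2 and 5. Mutant replicate 3 was high for Actg2 too. For Tagln that array (8.89) lay below every wild-type array, and for Acta2 (10.13) below the wild-type mean of 10.48. Myl9, a myosin light chain of smooth muscle chosen likewise, read 10.95, 10.06, 10.61, 10.53 and 10.14 in the mutant, against 10.88, 10.42, 10.27, 10.63 and 10.17 in wild type, a difference of -0.02 (SE 0.21). Among mutant arrays it too was lowest in replicates 2 and 5.

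This pattern was not shared by the contractile list as a whole. Of its 16 genes that were not dim, 5 were above the wild-type mean in mutant replicate 4 and below it in mutant replicates 2 and 5. They were Acta2, Tagln, Actg2, Myl9 and Cnn2. The pattern was read off these genes except Cnn2, so the count does not test it, and its share over all genes was not counted. Some of these values lay close to the wild-type mean. Myl9 read 10.53 in mutant replicate 4 against 10.47, and Cnn2 read 11.52 and 11.42 in mutant replicates 4 and 2 against 11.46. Over the same 16 genes, 10, 7, 8, 9 and 5 were above their wild-type mean in mutant replicates 1 to 5. Des, the muscle intermediate filament desmin, ran the other way, with 8.02, 9.23, 8.82, 8.12 and 8.59 in mutant replicates 1 to 5, against a wild-type mean of 8.50. Smtn, which encodes smoothelin, and Csrp1, a LIM protein of smooth muscle, were also highest in mutant replicate 2, at 7.80 and 10.02, and Tpm2, a tropomyosin, was highest in mutant replicate 5, at 11.95. These 5 further genes, Cnn2 among them, were named after their values were seen. The genes are plotted by array relative to their wild-type means.

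**Figure D3:**
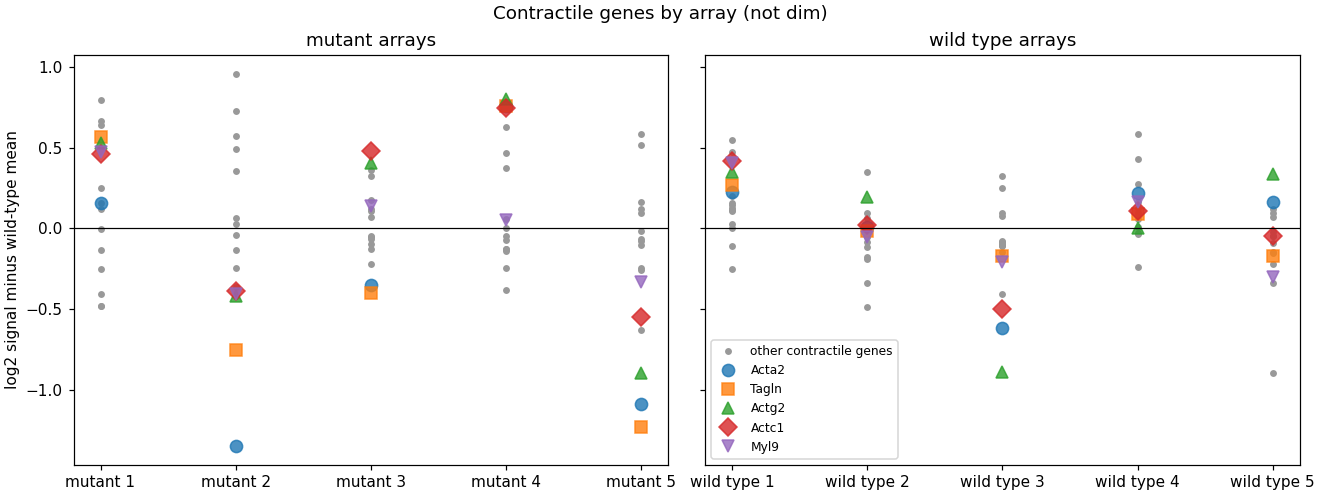
Log2 signal in each array minus the gene's wild-type mean, mutant arrays left and wild-type arrays right, for Acta2, Tagln, Actg2, Actc1 and Myl9 (coloured) and the 12 other contractile genes that were not dim (grey). The coloured genes, of which Actc1 and Myl9 were chosen after their values were seen, are above 0 in mutant replicate 4 and below 0 in 2 and 5, while 7 of the list's 16 genes are above 0 in mutant replicate 2 and 5 of them in replicate 5.

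Cnn1 and Myh11, calponin and the smooth muscle myosin heavy chain, mark more mature muscle and were dim. Cnn1 had raw signals of 83.0, 29.3, 2.1, 62.4 and 3.6 in the mutant, against 9.5, 23.5, 6.5, 64.0 and 15.4 in wild type. Its log2 signal averaged 4.23 ± 2.18 in the mutant and 4.19 ± 1.21 in wild type (SD, n = 5 each), a difference of 0.03 whose interval, -2.20 to 2.27, is the widest of the 17. The brighter probe set of Myh11 had raw signals of 27.3, 7.0, 38.8, 30.3 and 16.2 in the mutant, against 28.2, 18.5, 19.9, 25.1 and 4.8 in wild type, a log2 difference of 0.29 (SE 0.53, interval -0.90 to 1.48, limma adjusted p = 1.00). The second gave 0.31 (SE 0.63).

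In the contractile list of 21 measured genes, 12 were higher and 9 lower in the mutant and none had an unadjusted p under 0.05, against 2.85% of genes higher and 1.78% lower at that threshold with 1 probe set per gene. The list's median difference was 0.01 and that of all genes 0.03. The smallest p in it belonged to Pgm5, a protein of muscle attachment plaques, at 0.28 (SE 0.19), Lmod1, a leiomodin of smooth muscle and dim here, at -0.56 (SE 0.46), and Mylk, the myosin light chain kinase, at 0.24 (SE 0.21). Lmod1 differed by 0.67 in the 18S-high set and by -1.38 in the 18S-low set. The summed signal of the list was 20024 to 24118 in the mutant and 20104 to 23965 in wild type.

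Ptch1, the hedgehog receptor, was above the median brightness on 2 of its 3 probe sets. On 1428853_at its log2 signal was 11.11, 10.85, 10.32, 10.52 and 10.23 in the mutant, against 10.12, 10.37, 10.48, 10.30 and 10.66 in wild type. Mutant replicates 1 and 2 were above every wild-type array and the others lay within the wild-type range. The difference was 0.22 (SE 0.20, 95% interval -0.22 to 0.66, limma adjusted p = 1.00), with -0.14 in the 18S-high set and 0.46 in the 18S-low set. On 1439663_at it was 0.48 (SE 0.31, interval -0.22 to 1.17), with 3 mutant arrays above every wild-type array, and 0.24 without wild-type replicate 3. The dim 1450824_at gave -0.09 (SE 0.61). The array that was highest differed between the probe sets, mutant replicate 1 on the first and mutant replicate 4 on the second.

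Gli1, the Gli factor that the pathway induces, read 8.35, 9.18, 7.42, 7.96 and 8.30 in the mutant, against 7.76, 7.88, 8.15, 7.91 and 7.84 in wild type. Mutant replicates 1, 2 and 5 were above every wild-type array and mutant replicate 3 was below them all. The means were 8.24 ± 0.64 in the mutant and 7.91 ± 0.15 in wild type (SD, n = 5 each), a difference of 0.33 (SE 0.28, 95% interval -0.29 to 0.96, limma adjusted p = 1.00). It was 0.10 without mutant replicate 2 and 0.54 without mutant replicate 3. Ptch1 and Gli1 had r = 0.584 over the 10 arrays (permutation p = 0.0816, adjusted p = 0.394, Spearman's rho 0.515, permutation p = 0.133, adjusted p = 0.497), and r was 0.078 without the 2 arrays farthest from the median of Ptch1, so the relation rests on them.

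The spread between mutant pools was wider than that between wild-type pools for several of these genes. The ratio of the mutant SD to the wild-type SD was 4.54 for Tagln, 4.33 for Gli1 and 2.45 for Acta2, and 0.937%, 1.11% and 7.10% of the 22519 probe sets that were not dim had a ratio at least as large. The median ratio over those probe sets was 1.09, and 56.6% were above 1, as were 8 of the 9 probe sets of the 10 genes that were not dim. Leaving out each array in turn, the ratio ran from 3.91 to 6.62 for Tagln, from 2.89 to 9.52 for Gli1 and from 1.94 to 8.47 for Acta2, the highest values of Gli1 and Acta2 both without wild-type replicate 3 and the lowest without mutant replicates 2 and 4. These ratios were picked out after the values were seen and the spread was not tested. The arrays behind them differ between the genes, mutant replicates 4 and 5 for Tagln, and mutant replicates 2 and 3 for Gli1.

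Of the 17 measured hedgehog ligands, receptors and effectors, 12 were higher and 5 lower in the mutant and none had an unadjusted p under 0.05. The list's median difference was 0.11. Shh, the ligand made by the epithelium, was dim and read 7.26, 4.74, 5.42, 2.29 and 3.0 in the mutant, against 5.63, 4.06, 6.17, 6.96 and 6.24 in wild type, a difference of -1.27 (SE 0.91, 95% interval -3.30 to 0.75, limma adjusted p = 1.00). Mutant replicates 4 and 5, both high-18S arrays, were its lowest values, giving -2.50 in the 18S-high set and -0.45 in the 18S-low set. Smo, the signal transducer, differed by 0.05 (SE 0.14, interval -0.28 to 0.37), the activator Gli2 by 0.14 (SE 0.17, interval -0.24 to 0.52) and Gli3, whose processed form represses targets, by -0.06 (SE 0.14, interval -0.38 to 0.26). Kif7, a kinesin that regulates Gli proteins, had the smallest p of the list, at 0.29 (SE 0.20). Hhip, which binds and holds back the ligand, was dim and differed by 1.06 (SE 0.76), or 0.28 without wild-type replicate 3, the array in which it read 1.25, while the 4 other wild-type values were 4.60 to 5.49. The hedgehog pathway genes are plotted with their intervals.

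**Figure D4:**
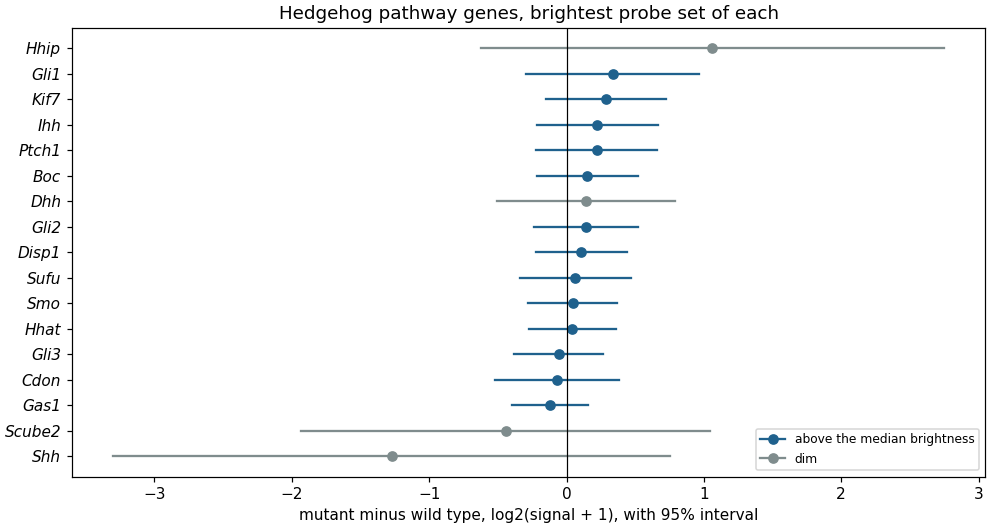
Difference of 17 hedgehog pathway genes, mutant minus wild type in log2(signal + 1), with the 95% interval from limma on the brightest probe set of each (5 mutant and 5 wild-type arrays). The intervals of the 17 genes include 0, and those of the dim genes Shh and Hhip are among the widest.

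Among 9 measured hedgehog targets 6 were higher and 3 lower, and 1 had an unadjusted p under 0.05, Bmp4, which was higher (2.85% of all genes were). Bmp4, the growth factor that drives ureteral mesenchyme towards muscle, read 10.38, 10.14, 10.11, 9.95 and 10.17 in the mutant, against 9.76, 9.55, 9.63, 9.84 and 10.06 in wild type. The 4 mutant replicates 1, 2, 3 and 5 were above every wild-type array. The difference was 0.38 (SE 0.14, 95% interval 0.06 to 0.71, limma unadjusted p = 0.0232, adjusted p = 1.00), with 0.26 in the 18S-high set and 0.47 in the 18S-low set. Of the 12 measured genes of the ureteral mesenchyme list, not all of them regulators, 7 were higher and 5 lower, with a median of 0.07. At an unadjusted p under 0.05, 2 were higher and 1 lower, where 2.85% of all genes were higher and 1.78% lower. The lower one was Car3, a carbonic anhydrase, at 7.31, 7.46, 7.35, 7.28 and 7.21 in the mutant, against 8.14, 8.10, 8.46, 7.62 and 8.39 in wild type, with no overlap (difference -0.82, SE 0.17, limma unadjusted p = 0.000733, adjusted p = 0.821). With its probe sets averaged Car3 came to -0.26. Tbx18 and Bmp4 were the higher ones.

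Markers of the mesenchyme were present. Nephron progenitor genes were measured above the median level for all 9 members, and 7 of the 9 had an unadjusted p under 0.05, lower in the mutant, against 1.78% of all genes, with a median difference of -0.66. Their summed signal was 3643 to 7049 in the mutant and 7577 to 9342 in wild type. The smallest p were those of Itga8, an integrin (-0.77, SE 0.16), Gdnf, the growth factor for the bud (-1.12, SE 0.24), and Cited1 (-1.11, SE 0.27). None of the 9 was called, and the smallest limma adjusted p among them was 0.821. Renal stroma genes were measured above the median level for 8 of 8, with 6 higher in the mutant and sums of 19087 to 24960 in the mutant and 18779 to 21346 in wild type. Pdgfra, a receptor of stromal cells, differed by 0.36 (SE 0.13, limma unadjusted p = 0.0172, adjusted p = 1.00) without overlap, which held for 0.888% of all probe sets. It was the 1 stromal gene at an unadjusted p under 0.05, where 2.85% of all genes were higher. Groups also did not overlap for 5 of the 9 nephron progenitor genes. Meis1 differed by 0.25 (SE 0.16) and Foxd1, the stromal regulator, by 0.18 (SE 0.17). The part of these shifts in the Tbx18 and Bmp4 differences was not tested.

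Genes of other cells that make contractile proteins or hedgehog ligand were read on the same arrays. Mural cell markers were dim for 1 of 8 genes, and 6 were higher in the mutant, none with an unadjusted p under 0.05, with sums of 4216 to 4995 in the mutant and 3657 to 4811 in wild type. Rgs5, Notch3 and Cspg4, all pericyte genes, differed by 0.34 (SE 0.16), 0.36 (SE 0.21) and 0.26 (SE 0.22). The 8 endothelial genes were above the median level and higher in the mutant, none with an unadjusted p under 0.05, with sums of 2510 to 3298 in the mutant and 2502 to 3239 in wild type and with Cdh5, Tie1 and Emcn at 0.26, 0.36 and 0.15. Muscle markers were dim for 8 of 10 genes, Myf5, Myod1, Myog and Myf6 among them, and Acta1 and Actc1 were not. Their sums were 720 to 1334 in the mutant, highest in replicates 4 and 1, and 694 to 1101 in wild type. Most of each sum was signal of Actc1, which was chosen after its values were seen, so the sums largely repeat that gene's pattern. Nppa, Myl7 and Myf6 differed by -0.63 (SE 0.30), 0.42 (SE 0.29) and 0.65 (SE 0.62). No marker of any list was listed at exactly 0.

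Trunk and body wall genes were dim for 4 of 8, Pax1, Pax3, Pax9 and Lbx1. Their sums were 2378 to 4483 in the mutant and 2396 to 3670 in wild type. Of the 8 genes, 4 were higher and 4 lower in the mutant. At an unadjusted p under 0.05, 2 were higher and 2 lower, against 2.85% and 1.78% of all genes. Twist1, a mesodermal transcription factor, was the member with the smallest p, at 0.57 (SE 0.13, limma unadjusted p = 0.00155, adjusted p = 0.821). Its groups did not overlap, which held for 0.888% of all probe sets. The dim Pax1 and Pax3 differed by 1.32 (SE 0.44) and -0.44 (SE 0.16). Ureteric bud genes were dim for 3 of 12, Krt19, Esrp1 and Rab25. Their sum was 4318, 4045, 2697, 1473 and 2630 in mutant replicates 1 to 5, against 1972, 2280, 3098, 3452 and 2981 in wild-type replicates 1 to 5. Mutant replicates 1 and 2, the highest for the bud sum, were also the highest for Ptch1 on its brightest probe set and for Gli1, and mutant replicate 4, the lowest, had the lowest Shh. Other values did not follow the bud sum. Mutant replicate 4 was the highest on Ptch1 1439663_at, at 7.30, and Shh was 4.74 in mutant replicate 2, below 5.42 in mutant replicate 3. Wild-type replicate 4, the highest of its group for the bud sum, had Ptch1 at 10.30 on the brightest probe set and Gli1 at 7.91. Both lay within the range of the other wild-type arrays. Rab25, Wnt11 and Calb1 differed by 0.70 (SE 0.44), 0.26 (SE 0.19) and 0.44 (SE 0.36). The part of bud tissue in the hedgehog values was not tested.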

How the data were processed

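The authors deposited 1 table of 45101 probe sets and 10 arrays (Affymetrix mouse genome arrays), whose values are linear intensities. The sources used here do not name the algorithm that summarised the probes. Per the labels' protocols, biotin-labelled cRNA was made from 1 ug of total RNA per pool. The mean of each array without 2% of values at each end was 250.0, so the deposited intensities had been scaled. No further normalization was applied (array medians 5.99 to 6.30 in log2 signal). The 64 control probe sets were left out. Of the others, 34945 had 1 gene symbol, 932 several and 9160 none in the platform annotation. log2(signal + 1), which understates the change of dim genes, was fitted with limma 3.58.1 in R 4.3.3 (lmFit and eBayes, defaults) over all probe sets. The code was also run on simulated arrays with large changes planted in probe sets above the median brightness. That run says nothing about dim probe sets or about differences as small as those of the brighter probe sets here. For the 12 gene lists a gene stood as its probe set with the highest mean, and 4 of 132 entries are not analysed here. Covariation was tested with 100000 permutations. The precision is limited by the number of arrays. The alternatives are compared in the closing section.

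The genes, lists and alternatives were chosen with earlier results of these data known. Genes named were the 10, then Shh, Smo, Gli2, Gli3, Hhip, Srf and Bmp4, then the 3 of each list with the smallest p; Wnt9b, Actc1 and Myl9 were added.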

Additional observations from a re-analysis of the deposited data

Results flagged for a closer look

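Among 110 groups of 5 values, 15 held an array far from the other 4 by Dixon's gap criterion, where chance marks about 1 in 20, or 5.5. All values are log2 signals, and the range of the other 4 arrays of the group follows each. In mutant arrays, Myocd 1425978_at read 7.11 in replicate 1 (5.53 to 5.95), Hhip 4.45 in replicate 4 (5.56 to 5.86), Kif7 7.05 in replicate 3 (7.77 to 7.94), Myf6 5.04 in replicate 5 (2.32 to 2.70) and Pax3 6.06 in replicate 3 (5.58 to 5.71).

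Of the 10 wild-type marks, 6 were low values of replicate 3, an array with bright hybridisation controls. These were Tbx18 1429974_at at 9.28 (9.54 to 9.64), Acta2 1416454_s_at at 9.86 (10.49 to 10.71), Actg2 at 5.62 (6.51 to 6.86), Ptch1 1439663_at at 5.34 (6.31 to 6.70), Gli2 at 8.51 (8.92 to 9.04) and Hhip at 1.25 (4.60 to 5.49). The others were Myocd 1425978_at at 6.84 in replicate 4 (5.81 to 6.07), Myh11 1448962_at at 2.54 in replicate 5 (4.28 to 4.87), Tie1 at 7.34 in replicate 4 (6.69 to 6.84) and Pax3 at 6.55 in replicate 2 (6.01 to 6.12). The part of that replicate's hybridisation in its low values was not tested.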

How the results depend on the processing

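No member probe set was called under any of the 23 alternatives, and the smallest adjusted p of a member was 0.819 (limma, 1 probe set per gene). The number at an unadjusted p under 0.05 was 2 in the fit reported, 2 with arrays blocked by shared title wording and 3 with a pseudocount of 16. It was 1 with the brightest probe set per gene, 1 with a gene's probe sets averaged and 1 after median centring. In the 18S-low arrays alone it was 0, and without both arrays of brightest hybridisation controls it was 1. Leaving out single arrays gave 0 to 3. Both Tbx18 probe sets, Tshz3, Ptch1 1439663_at, Gli1 and the dim Myocd 1425808_a_at and Acta2 1456658_at kept a positive difference under each alternative that gave a value. Some of the other genes named also kept their sign throughout, Bmp4, Car3 and Shh among them. Further differences changed sign, Rab25, Lmod1, Calb1 and Acta2 1416454_s_at among them, which were not near 0 in the fit reported. With probe sets averaged, Myocd came to 0.056 and Acta2 to 0.13. In the 18S-high arrays alone, Cnn1 was -0.23, Actg2 -0.31, Ptch1 1428853_at -0.14, Srf 0.0036, Myl9 0.038, Lmod1 0.67, Smo -0.17, Gli3 0.025, Rab25 -0.19, Calb1 -0.17 and Emcn -0.022. In the 18S-low arrays alone, Myh11 1448962_at was -0.27, Ptch1 1450824_at 0.053 and Wnt9b 0.11. Without both arrays of brightest hybridisation controls, Cnn1 was -0.46, Actg2 -0.011, Mrtfa -0.087 and Myl9 0.031. Leaving out single arrays moved Acta2 1444105_at from -0.85 to 0.011, Tagln from -0.45 to 0.043, Cnn1 from -0.51 to 0.68, Myh11 1448962_at from -0.12 to 0.65 and 1418122_at from -0.036 to 0.72, Actg2 from -0.14 to 0.33, Ptch1 1450824_at from -0.48 to 0.19, Mrtfa from -0.020 to 0.16, Myl9 from -0.14 to 0.085, the Smo difference from -0.032 to 0.093, Gli3 from -0.11 to 0.010 and Actc1 from -0.00045 to 0.32. The causes were not tested. The 8 dim probe sets limit what can be said of Myocd, Cnn1 and Myh11.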
